A study of Mus musculus with 48 samples.

Results

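The TRiC/CCT chaperonin is built from the products of 8 genes, *Tcp1*, *Cct2*, *Cct3*, *Cct4*, *Cct5*, *Cct6a*, *Cct7* and *Cct8*. Members were chosen by gene symbol, with earlier results of these data known. All 8 of 8 were found among the 24444 genes of the deposited expression table. Their RNA levels were followed in the cerebral cortex of 48 male C57BL/6J mice, with 6 WT animals and 6 heterozygous Chd8 V986*/+ animals per age. The ages were E14.5 (embryonic day 14.5) and 1, 6 and 12 months after birth. Chd8 V986*/+ mice carry 1 allele of *Chd8*, a chromatin remodeler, with a stop codon in place of a valine, in every cell of the body, and their other allele is wild type. WT mice carry no engineered allele. No group received a treatment, each sample was the cortex of one hemisphere of one mouse, and the study's methods describe the WT controls as littermates, without saying which mice shared a litter.

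TRiC (TCP-1 ring complex, also called CCT) is a barrel of paired rings, and each ring holds 1 copy of each of the 8 subunits in a fixed order. It encloses newly made proteins and folds them with energy from ATP. Actin and tubulin, the building blocks of the cytoskeleton, depend on it, as do many proteins with WD40 propellers such as G protein beta subunits and the cell cycle activator CDC20. Every cell needs the complex. In Greek letters the subunits are alpha (*Tcp1*), beta (*Cct2*), gamma (*Cct3*), delta (*Cct4*), epsilon (*Cct5*), zeta (*Cct6a*), eta (*Cct7*) and theta (*Cct8*). The alpha, beta, delta and epsilon subunits bind ATP tightly and form one side of each ring, and the gamma, zeta, eta and theta subunits bind it weakly and form the other.

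The 8 genes lie on 8 different chromosomes of the mouse genome (mm9, the build the authors' processing notes name, with coordinates and identifiers from its GENCODE annotation). *Cct3* (ENSMUSG00000001416.7) lies on the plus strand at chr3:88101038-88125689, *Cct4* (ENSMUSG00000007739.4) on the plus strand at chr11:22890519-22903780 and *Cct7* (ENSMUSG00000030007.6) on the plus strand at chr6:85401499-85418471. *Cct6a* (ENSMUSG00000029447.8) is on the plus strand at chr5:130293315-130321696. On the minus strand are *Cct2* (ENSMUSG00000034024.7) at chr10:116488054-116500870, *Cct5* (ENSMUSG00000022234.8) at chr15:31520555-31531602 and *Cct8* (ENSMUSG00000025613.6) at chr16:87483570-87496114. *Tcp1* (ENSMUSG00000068039.6) is on the plus strand at chr17:13108567-13117933, in a crowded stretch. Its first part overlaps *Mrpl18* and its last part overlaps *Acat3*, both on the minus strand, with 141 and 571 bases of *Tcp1* exon shared. An exon of *Cct8* shares 193 bases with an exon of *Usp16* on the plus strand, and an exon of *Cct7* shares 214 with one of 1700040I03Rik on the minus strand. The study's methods name a stranded library kit and the sample labels name another, so whether reads of these overlaps were told apart by strand cannot be settled here, and the values of *Tcp1*, *Cct7* and *Cct8* carry that uncertainty.

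Promoter sequences are shown because 8 genes on separate chromosomes moved together in the values below. RefSeq starts (GRCm38.p6 build) were held for 7 of the 8 genes, with 2 start sites each for *Cct2* and *Cct5* and no entry for *Cct4*. The 250 bases before the start are printed 5′ to 3′ along the coding strand for the members with the largest and the smallest fall after birth, *Cct3* (chr3:88296885-88297134, plus strand) and *Cct8* (chr16:87495870-87496119, minus strand), for *Tcp1* (chr17:12916079-12916328, plus strand) and for the first start of *Cct5* (chr15:31601847-31602096, minus strand), which holds 1 of the 2 heat shock motif matches found. Capitals mark matches to the motifs searched on both strands: GAANNTTC and TTCNNGAA (arrangements of the heat shock element, bound by heat shock factors), CCAAT (the CCAAT box), GGGCGG (the GC box), CCGGAAGT (an ETS site) and the NRF1 site.
Cct3: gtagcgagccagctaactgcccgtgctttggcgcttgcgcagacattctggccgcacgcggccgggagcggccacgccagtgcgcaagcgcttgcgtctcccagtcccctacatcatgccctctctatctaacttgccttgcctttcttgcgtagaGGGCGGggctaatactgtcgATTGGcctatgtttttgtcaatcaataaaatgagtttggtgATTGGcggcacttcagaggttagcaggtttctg
Cct8: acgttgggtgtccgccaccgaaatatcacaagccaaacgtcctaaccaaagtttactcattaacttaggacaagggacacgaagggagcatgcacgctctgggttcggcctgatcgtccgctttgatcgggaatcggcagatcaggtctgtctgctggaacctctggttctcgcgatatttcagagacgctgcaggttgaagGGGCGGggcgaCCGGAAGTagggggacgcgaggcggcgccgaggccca
Tcp1: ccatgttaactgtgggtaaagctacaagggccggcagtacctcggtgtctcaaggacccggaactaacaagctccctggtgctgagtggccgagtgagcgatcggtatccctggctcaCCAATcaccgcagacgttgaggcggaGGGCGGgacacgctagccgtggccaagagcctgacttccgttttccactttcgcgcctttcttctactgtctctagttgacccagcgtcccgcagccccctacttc
Cct5: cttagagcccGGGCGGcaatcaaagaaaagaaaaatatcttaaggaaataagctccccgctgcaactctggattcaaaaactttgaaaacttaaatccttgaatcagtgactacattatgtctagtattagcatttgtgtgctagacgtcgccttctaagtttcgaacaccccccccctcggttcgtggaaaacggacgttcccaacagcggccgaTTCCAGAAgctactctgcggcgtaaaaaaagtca

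The GC box was found in 8 of the 9 promoter windows of the members, against 32.7% of all 32851 windows of the same length, and the CCAAT box in 4 of 9 against 33.8%. *Cct3* held 2 CCAAT boxes, *Cct6a* 2 and *Cct7* 3. An ETS site was found only in *Cct8* among the members (2.88% of all windows), and no window of a member held the NRF1 motif (0.782%). A heat shock motif in the GAANNTTC form was found at the second start of *Cct2* (6.69%) and in the TTCNNGAA form at the first start of *Cct5* (7.17%). These are letter matches only, and the motifs differed among the genes, as the printed sequences show.

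Expression is given as VST (variance-stabilizing transformation) values, which the authors computed from read counts. They are on a log2 scale, and they are not divided by gene length, so levels were not compared between genes. Genotypes and ages were compared with limma, and a gene was called when its adjusted *p* value (adjp, Benjamini-Hochberg over all genes tested) was below 0.1, the threshold of the study. The study applied that threshold to DESeq2 with a correction for batch effects, so its calls and those given here come from unlike tests. As a check on the labels, *Chd8* was called lower in Chd8 V986*/+ cortex at each of the 4 ages, by 0.63, 0.67, 0.64 and 0.54 log2 units from the youngest to the oldest, and no mutant overlapped a WT mouse. The 10 cortical identity genes had summed levels at E14.5 of 14.91 to 15.92 in WT and 15.51 to 16.06 in mutant samples. Markers of midbrain, hindbrain and spinal cord also appeared at E14.5, with summed levels between 8.50 and 12.50 in WT and between 8.34 and 10.94 in mutant samples on the log2 scale.

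Between E14.5 and 1 month, RNA of all 8 subunits fell in WT cortex. The mean over the 8 genes went from 12.92 ± 0.05 (SD, n = 6) to 11.79 ± 0.04, a log2 difference of −1.13 that left 45.6% of the embryonic level. Each of the 8 was called lower, where 42.3% of the 17285 genes tested were called lower, and 5 of the 8 fell by 1 log2 unit or more, which 17.7% of all genes did. The median change over all genes was 0.02. In bulk tissue, fewer cells of a type and less RNA per cell cannot be told apart.

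*Cct3*, the gamma subunit, had the largest fall. WT embryos had a lowest value of 12.64, a median of 12.77 and a highest of 12.87, and 1-month WT mice had 11.25, 11.32 and 11.41. The ages stood more than 1 log2 unit apart with no overlap, and the fitted difference was −1.44 (95% CI −1.54 to −1.34, limma adjp = 1.23e-13). *Cct4*, the delta subunit, stood at 12.73, 12.76 and 12.91 in WT embryos and at 11.33, 11.39 and 11.44 a month after birth. Its log2 difference was −1.40 (95% CI −1.49 to −1.31), so that *Cct3* and *Cct4* both kept less than 40% of their embryonic level, at 36.8% and 37.9%.

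*Cct2*, the beta subunit, fell from a WT median of 13.04 (lowest 12.99, highest 13.10) to 11.78 (11.67 to 11.84), a log2 difference of −1.27. *Cct5*, the epsilon subunit, mutated in a hereditary sensory neuropathy, fell from 13.02 (12.96 to 13.19) to 11.79 (11.75 to 11.86), a difference of −1.24. *Cct6a*, the zeta subunit, fell from 12.97 (12.92 to 13.04) to 11.95 (11.87 to 12.02), a difference of −1.04. These 3 genes ended between 41.5% and 48.7% of their embryonic level.

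*Tcp1*, the founding member of the family, *Cct7* and *Cct8* had the smallest falls and kept 53.1%, 53.2% and 55.7% of their embryonic level. These are also the members whose exons overlap a gene on the other strand. The part of that overlap in the size of their falls was not tested. *Tcp1* went from a WT median of 13.07 (12.98 to 13.11) to 12.14 (12.11 to 12.20). *Cct7*, the eta subunit, went from 12.87 (12.79 to 12.95) to 11.95 (11.91 to 12.01). *Cct8*, the theta subunit, went from 12.78 (12.77 to 12.86) to 11.96 (11.82 to 12.05). Even for *Cct8* every WT embryo was above every 1-month WT mouse, as for the other 7 genes; 33.5% of all genes tested separated the ages downward in this way.

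Chd8 V986*/+ mice, which share no animal with the WT series, showed the fall of all 8 genes as well. Their mean over the 8 genes went from 12.95 ± 0.09 (SD, n = 6) to 11.81 ± 0.03, a difference of −1.14. All 8 genes were called lower (42.4% of all genes tested), 5 of 8 by 1 log2 unit or more (18.3%), and all 8 separated the ages without overlap (33.9%). *Cct3* had the largest difference, −1.47 (95% CI −1.59 to −1.35), and *Cct8* the smallest, −0.84 (95% CI −0.94 to −0.75). Whether the size of the fall differed between genotypes was not tested.

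**Figure D1:**
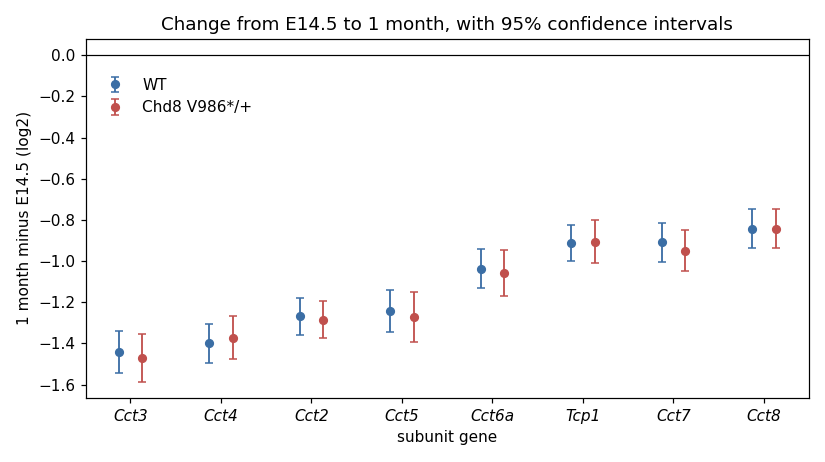
Change of each subunit gene from E14.5 to 1 month (1 month minus E14.5, log2 of VST expression), in WT (blue) and Chd8 V986*/+ (red) cortex, with 6 mice per group and age and 95% confidence intervals from limma. All 16 values lie below 0, from −1.47 for *Cct3* to −0.84 for *Cct8*, and the genotypes follow the same order but for *Tcp1* and *Cct7*.

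The fall was unequal among subunits, and its order was shared by the genotypes. From the largest to the smallest fall in WT the order was *Cct3*, *Cct4*, *Cct2*, *Cct5*, *Cct6a*, *Tcp1*, *Cct7* and *Cct8*, over a range of 0.60 log2 units. Mutant mice kept this order except that *Cct7* came before *Tcp1*, over a range of 0.63. Subunits were compared within each mouse by exact two-sided permutation tests of age over all 28 pairs, with adjustment over the 28. In WT, 24 pairs differed at an adjusted *p* below 0.05, in mutant mice 25, and 23 pairs did so in both genotypes with the same sign. *Cct3* fell more than *Cct8* by 0.60 log2 units in WT (exact permutation p = 0.00216, the smallest that 6 against 6 mice can give) and by 0.63 in mutant mice. Of the 7 pairs of neighbours in the WT order, 3 differed in WT and 5 in mutant mice. *Cct2* and *Cct5* could not be separated in WT (difference −0.03, standard error 0.0418), nor could *Tcp1* and *Cct7* (−0.003, standard error 0.0331). The same held in WT at the ends of the order. There *Cct3* and *Cct4* differed by −0.04 (standard error 0.0287) and *Cct7* and *Cct8* by −0.07 (standard error 0.0389). In mutant mice *Cct3* and *Cct4* did differ at an adjusted *p* below 0.05, and so did *Cct7* and *Cct8*. At the small end of the mutant order itself, *Tcp1* and *Cct8* did not (exact permutation, adjusted *p* = 0.0718), nor did *Cct7* and *Tcp1* (0.0606). The order does not divide along the sides of the ring, since the weak binders *Cct3* and *Cct8* lay at its opposite ends.

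Partners and clients of the chaperonin moved less evenly over the same interval in WT, where 42.3% of all genes were called lower and 43.4% higher. Prefoldin hands unfolded actin and tubulin to TRiC. Of 9 subunits of prefoldin and its relatives, 6 fell and 1 rose (median −0.22), with *Uxt* (−1.02), *Pfdn4* (−0.90) and *Vbp1* (−0.86) the farthest down. Of 5 phosducin-like and other co-factors of TRiC tested, 3 fell and 2 rose. *Pdcl* and *Pdcl3*, whose products bind the ring and assist G protein beta and actin folding, each fell by 1.33, and *Bag3* rose by 0.93. Of 7 tubulin folding cofactors, which take tubulin over after release from TRiC, 4 fell (*Tbca* by 1.03, *Tbcd* by 0.94) and 2 rose (*Tbcel* by 0.99). Among 14 actin and tubulin genes, 10 fell and 3 rose (median −1.35), from *Tubb2b* at −4.32 and *Tuba1c* at −3.54 to *Tuba4a* at 5.90. The 22 WD40 and other clients had 15 lower and 7 higher calls (median −0.30), led by the mitotic genes *Cdc20* (−5.12) and *Plk1* (−4.72) and, upward, by the phosphatase subunit gene *Ppp2r2c* (3.25).

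Other chaperones moved in both directions. The mitochondrial chaperonin genes *Hspd1* and *Hspe1* fell by 0.65 and 0.52. In a list of 26 Hsp70 and Hsp90 chaperones and co-chaperones, 11 were called lower and 14 higher (median 0.12), with the small heat shock protein genes *Cryab* (5.29) and *Hspb1* (2.03) and the inducible Hsp70 gene *Hspa1b* (2.17) farthest up. In mutant mice 10 of these were called lower and 13 higher (median 0.10), where 42.4% and 43.7% of all genes were. Of the 3 chaperonin-like genes of Bardet-Biedl syndrome, *Mkks* rose by 0.96, and *Bbs10* and *Bbs12* fell by 0.63 and 0.62. *Cct6b*, the zeta subunit of testis, was not called in WT (−0.23, limma adjp = 0.38). Next to *Tcp1*, *Acat2* fell by 1.91, *Acat3* by 0.46 and *Mrpl18* by 0.26, and next to *Cct8*, *Usp16* fell by 0.25. These 26 chaperones and the other lists were gathered with earlier results of the data known.

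Cell type markers moved over the same interval. All 10 markers of neural progenitors and dividing cells fell in WT (median −4.91), and all 11 oligodendrocyte, 8 astrocyte and 8 microglia markers rose (medians 4.97, 3.97 and 2.71). Their part in the fall of the subunit genes was not tested.

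After the first month the subunit genes stayed within a narrow band. From 1 to 6 months the WT mean changed by 0.06 and the mutant mean by 0.04. In WT, *Tcp1* (log2 difference 0.10, limma adjp = 0.0526) and *Cct4* (0.11, limma adjp = 0.0768) were called higher, 2 of 8 members where 12.3% of all genes were called higher. In mutant mice these were *Cct4* (0.08, limma adjp = 0.0644) and *Cct7* (0.10, limma adjp = 0.0308), 2 of 8 where 14% of all genes were. Only *Cct4* was called in both genotypes. At an adjusted *p* below 0.05 the 2 calls became 0 in WT and 1 in mutant mice, and in a joint fit of all 48 samples they became 1 and 0. The values of *Cct4* rose from 11.33, 11.39 and 11.44 (lowest, median and highest) to 11.35, 11.53 and 11.59 in WT. In mutant mice they rose from 11.38, 11.42 and 11.46 to 11.46, 11.50 and 11.57, and only the mutant ages did not overlap. Among mutant mice *Cct4* and *Cct7* separated these ages upward, as 4.47% of all genes did. *Cct6a* went the other way in both, by −0.02 in WT and −0.07 in mutant mice, without a call.

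**Figure D2:**
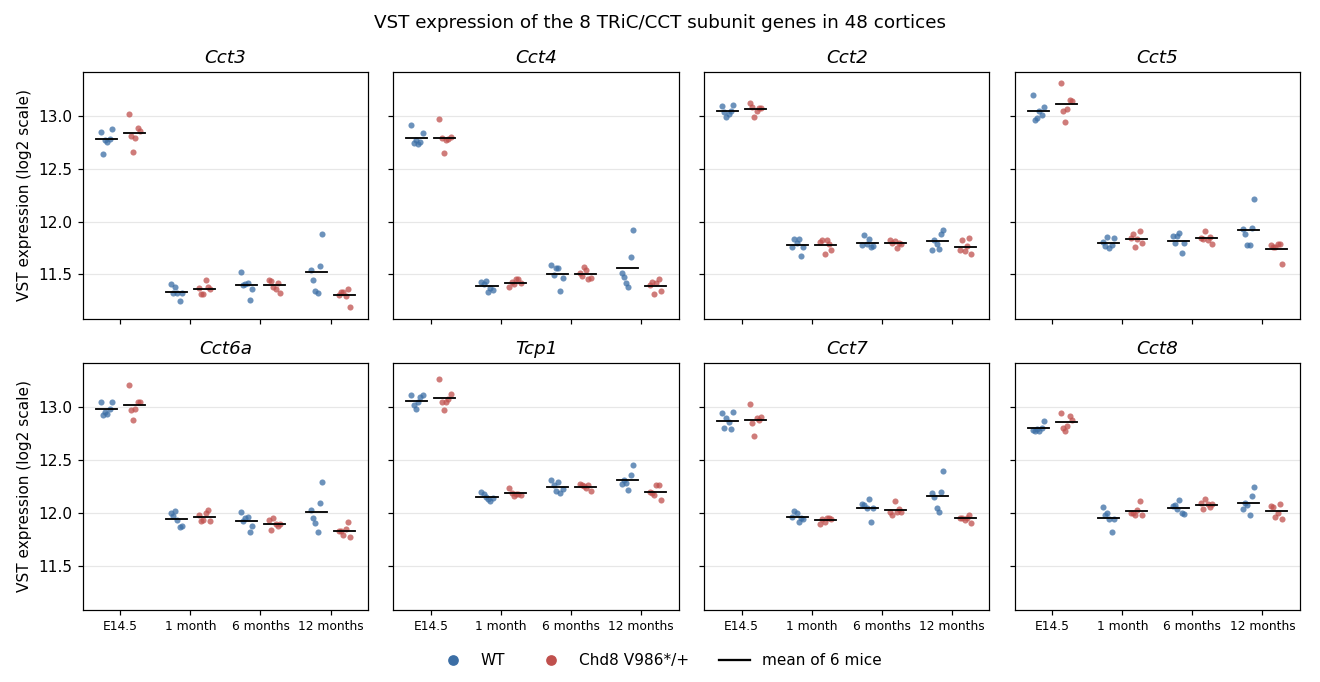
VST expression (log2 scale) of the 8 subunit genes in each of 48 mice, with WT in blue, Chd8 V986*/+ in red and the mean of 6 mice as a black line at each age. Every gene drops by 0.84 to 1.47 between E14.5 and 1 month, and at 12 months 1 WT mouse stands highest in every panel.

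From 6 to 12 months the group means moved little. All 8 genes had higher means in WT at 12 months than at 6 months (log2 differences 0.01 to 0.12, 46.9% of all genes) and all 8 lower means in mutant mice (−0.03 to −0.11, 50.9% of all genes). The WT direction rested on 1 mouse in part, since without WT replicate 6 of 12 months *Cct2* and *Cct4* stood at −0.008 and −0.01. None of these steps was called in either genotype, with 0.00579% and 3.43% of all genes called in WT and mutant mice. At an unadjusted *p* below 0.05, no member changed in WT (6.75% of all genes) and 4 were lower in mutant mice (*Cct3*, *Cct4*, *Cct5* and *Cct7*), where 9.26% of all genes were. *Cct4* had the largest step in mutant mice, −0.11 (95% CI −0.19 to −0.04, limma adjp = 0.122), and *Cct7* was the single member whose 12-month mutant mice all lay below the 6-month ones (1.08% of all genes).

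At E14.5, 1 month and 6 months, no subunit gene was called between genotypes. At E14.5 all 8 means were higher in mutant embryos, by 0.00 for *Cct4* to 0.07 for *Cct5*, where 50.4% of all genes had a higher mean, and none was called or passed an unadjusted *p* of 0.05 (0.00593% and 4.56% of all genes). This direction rested in part on a single embryo. Replicate 1 of the mutant group was highest of its group in all 8 genes (*Tcp1* 13.26 against 12.97 to 13.12 in the other mutants), and without it 5 of 8 were higher and the mean difference went from 0.03 to 0.005. In the same comparison all 17 markers of midbrain, hindbrain and spinal cord were lower in mutant samples (median −1.22) and 9 of 10 cortical markers higher (median 0.34), none of them called, and their part in the result was not tested.

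At 1 month 7 of 8 means were higher in mutant mice (48.6% of all genes), with differences from −0.03 (*Cct7*) to 0.06 (*Cct8*), and none was called where 0.139% of all genes were. At 6 months 4 were higher (49.6% of all genes) and 4 lower, between −0.03 (*Cct6a*) and 0.03 (*Cct8*), again with no call (0.0927% of all genes). No member passed an unadjusted *p* of 0.05 at either age (8.8% and 7.59% of all genes). The 95% intervals of all 8 genes at these ages ran from −0.103 at the lowest to 0.142 at the highest. At 6 months the mean over the 8 genes was 11.85 ± 0.06 in WT and 11.85 ± 0.03 in mutant mice (SD, n = 6).

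**Figure D3:**
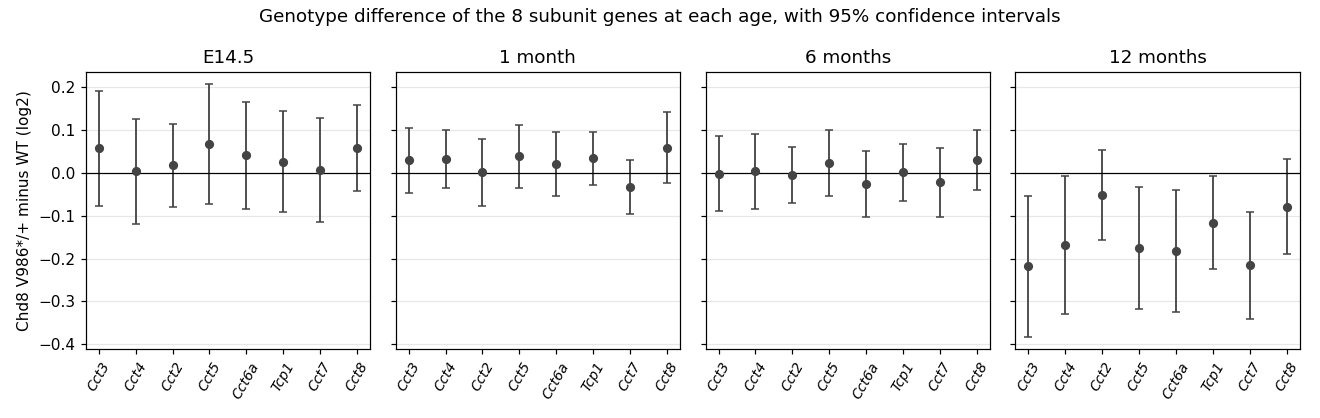
Difference between Chd8 V986*/+ and WT cortex (log2 of VST expression) for each subunit gene at each age, with 6 mice per group and 95% confidence intervals from limma. The values lie near 0 at E14.5, 1 month and 6 months and between −0.22 and −0.05 at 12 months.

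At 12 months all 8 subunit genes had lower means in mutant mice, where 48.6% of all genes did, but none was called. The mean over the 8 genes was 11.92 ± 0.14 in WT and 11.77 ± 0.05 in mutant mice (SD, n = 6), a difference of −0.15 that puts mutant cortex at 90.1% of WT. With limma, 0 of 8 were called, where 0.0463% of all genes were, and the lowest adjp was 0.23. At an unadjusted *p* below 0.05, 6 of 8 were lower, where 5.39% of the 17288 genes tested were, and the median over all genes was 0.005.

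*Cct7* had the clearest separation. WT mice had a lowest value of 12.00, a median of 12.16 and a highest of 12.39, and mutant mice 11.90, 11.95 and 11.98. All 6 mutant mice lay below all 6 WT mice, as for 0.497% of all genes downward, with a log2 difference of −0.22 (95% CI −0.34 to −0.09, limma adjp = 0.23).

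*Cct3* had a difference of the same size, −0.22 (95% CI −0.38 to −0.05), with WT at 11.33, 11.50 and 11.88 and mutant mice at 11.19, 11.32 and 11.36. The groups overlapped, since the lowest WT mice reached the mutant range. *Cct6a* (WT 11.82, 11.99 and 12.29, mutant 11.77, 11.83 and 11.92) and *Cct5* (WT 11.78, 11.91 and 12.21, mutant 11.60, 11.77 and 11.79) each differed by −0.18 and overlapped as well. *Cct4* differed by −0.17, between WT mice at 11.38, 11.50 and 11.92 and mutant mice at 11.31, 11.41 and 11.46. *Tcp1* differed by −0.12, between 12.21, 12.29 and 12.45 and 12.12, 12.19 and 12.26.

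*Cct8* and *Cct2* had the smallest differences. *Cct8* stood at 11.97, 12.08 and 12.24 in WT and at 11.94, 12.03 and 12.08 in mutant mice (−0.08, 95% CI −0.19 to 0.03). *Cct2* stood at 11.74, 11.81 and 11.92 in WT and at 11.70, 11.75 and 11.84 in mutant mice (−0.05, 95% CI −0.16 to 0.05). Both intervals include 0, and the groups of both genes overlapped.

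The WT mice of this age were unlike each other. WT replicate 6 was the highest of the 12 mice in all 8 genes, as it was for 20.8% of all genes, with *Cct3* at 11.88 where the other WT mice lay between 11.33 and 11.58. The SD of the subunit genes ran from 0.08 to 0.20 in WT and from 0.03 to 0.07 in mutant mice, and WT was the more variable group in all 8, with a median ratio of 2.72. The same was true of 69.9% of all genes at this age. Without WT replicate 6 all 8 genes were still lower in mutant mice, the mean difference was −0.10, 4 of 8 were lower at an unadjusted *p* below 0.05 (5.2% of all genes) and none was called, the lowest adjp being 0.281. *Cct7* then differed by −0.17 (95% CI −0.26 to −0.07). *Cct4*, *Cct8* and *Cct2* stood at −0.10, −0.05 and −0.03 without it, and *Cct4* and *Tcp1* were no longer below an unadjusted *p* of 0.05. Without WT replicate 3 instead, *Cct7* was called (−0.24, limma adjp = 0.0978), and 1.45% of all genes were.

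Where all 48 samples were fitted together, which gives every group one common spread, 4 members were called at 12 months with unchanged differences: *Cct7* (limma adjp = 0.0107), *Cct3* (0.0474), *Cct6a* (0.0538) and *Cct5* (0.0794). In that fit 3% of all genes were called. The median SD of the 8 genes was 0.15 in WT at 12 months and 0.06, 0.05 and 0.07 in WT at the 3 younger ages.

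**Figure D4:**
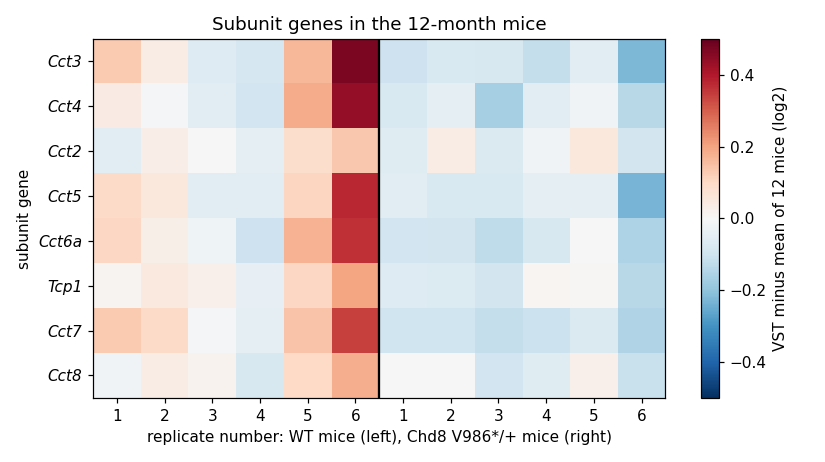
VST expression of each subunit gene in the 12 mice of 12 months, as the difference from the mean of all 12 (log2, color scale), with the 6 WT mice on the left and the 6 Chd8 V986*/+ mice on the right. WT replicate 6 is highest in every gene, and in *Cct7* all mutant mice lie below all WT mice.

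The genotype effect at 12 months was also set against that at each younger age, gene by gene in one fit of the 48 samples. These comparisons share the 12-month mice. They also give every group one common spread, although the subunit genes varied more in WT at 12 months than at the younger ages. The difference of effects was negative for all 8 genes against E14.5 (−0.07 for *Cct2* to −0.28 for *Cct3*), against 1 month (−0.05 to −0.25) and against 6 months (−0.05 to −0.22), where 48.8%, 47.7% and 48.6% of all genes had a negative difference. No member was called in any of these, where 0.0635%, 0.00578% and 0.0578% of all genes were. At an unadjusted *p* below 0.05, 7, 7 and 6 members were lower, where 5.69%, 5.53% and 4.23% of all genes were. *Cct7* against E14.5 had the lowest adjp, 0.173, at a difference of −0.22 (95% CI −0.35 to −0.10). Without WT replicate 6 of 12 months these counts were 6, 7 and 3.

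Of the genes listed around the chaperonin, none was called at 12 months. Of 9 genes of prefoldin and its relatives 7 were lower (median −0.13), with *Pfdn4* at −0.22. Of 5 TRiC co-factors 4 were lower (median −0.13), with *Pdcl* at −0.14. A lower mean was found for 48.6% of all genes. The mitochondrial chaperonin genes *Hspe1* and *Hspd1* were at −0.38 and −0.11, and *Mkks*, *Bbs10* and *Bbs12* between −0.05 and −0.25. The 7 tubulin cofactors had a median of −0.02 and the 14 actin and tubulin genes one of −0.04, with the beta-tubulin gene *Tubb4b* at −0.16. The groups of *Tubb4b* did not overlap, as for 0.497% of all genes downward. The 21 WD40 and other clients tested had a median of −0.04, with the ribosome scaffold gene *Rack1* at −0.21. *Acat2*, which lies beyond *Acat3* from *Tcp1*, was at −0.15, and its groups did not overlap either (0.497% of all genes downward).

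The 26 Hsp70 and Hsp90 chaperones and co-chaperones were all lower in mutant mice at 12 months (median −0.29), where 48.6% of all genes were. Of these, 18 were lower at an unadjusted *p* below 0.05 (5.39% of all genes), and none was called. The largest differences were those of *Hspa1b* (−0.84), *Hspb1* (−0.70) and *Hspa1a* (−0.53), genes induced by protein damage. The summed level of the list lay between 17.08 and 17.53 in WT and between 17.00 and 17.08 in mutant mice on the log2 scale. It was highest in WT replicate 6, the same mouse in which the 8 subunit genes were highest. That mouse was the highest of the 12 in 10 of the 26 genes, and in 20.8% of all genes. *Hspa1a*, *Hspa1b* and *Hspb1* were each highest, among WT mice, in replicate 5. Within mutant mice 10 of the 26 were called lower from 6 to 12 months (median −0.13), where 2.36% of all genes were. Without WT replicate 6 the list was still lower in 26 of 26 genes, with a median of −0.25. Among cell type markers, 7 of 8 endothelial and mural genes were lower (median −0.18), with summed levels of 12.34 to 12.57 in WT and 12.10 to 12.57 in mutant mice, and their part in the result was not tested.

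Other ages gave few calls in these lists. *Arl2*, a small GTPase that works with the tubulin cofactors, was called lower in mutant mice at 1 month (−0.22, limma adjp = 0.0557). Its groups did not overlap at that age, as for 0.441% of all genes downward. It stood at −0.22, −0.21 and −0.23 at E14.5, 6 and 12 months without a call. *Fkbp5*, an Hsp90 co-chaperone induced by glucocorticoids, was called higher in mutant mice at 1 month (0.34, limma adjp = 0.0546) and stood at −0.37 at 12 months.

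Mice that were high in one subunit tended to be high in the others. Each value was set against the mean of its genotype and age, so that the large fall after E14.5 plays no part, and these deviations were correlated over the 48 mice. The values are descriptions, since all points of a mouse come from one library and share its depth and its dissection. The median Pearson *r* over the 28 pairs of subunits was 0.79, from 0.58 (*Cct2* with *Cct7*) to 0.92 (*Cct4* with *Cct6a*). Without the 2 mice farthest from the median, WT replicate 6 of 12 months and mutant replicate 1 of E14.5, the median was 0.71.

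*Cct6a* followed the rest of the complex most closely, with *r* = 0.96 and Spearman's rho = 0.91 to the mean of the other 7, and *Cct2* least, with *r* = 0.68 and rho = 0.67. By age, each over 12 mice, the median *r* over pairs was 0.87 in embryos, 0.46 and 0.66 in the mice of 1 and 6 months, and 0.87 in the oldest. The median *r* was thus smallest at 1 month. The SD of the genes was then 0.03 to 0.08 in WT and 0.02 to 0.06 in mutant mice. At 6 months it was 0.04 to 0.09 in WT and 0.02 to 0.05 in mutant mice. At 12 months without WT replicate 6 the median *r* was 0.79.

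**Figure D5:**
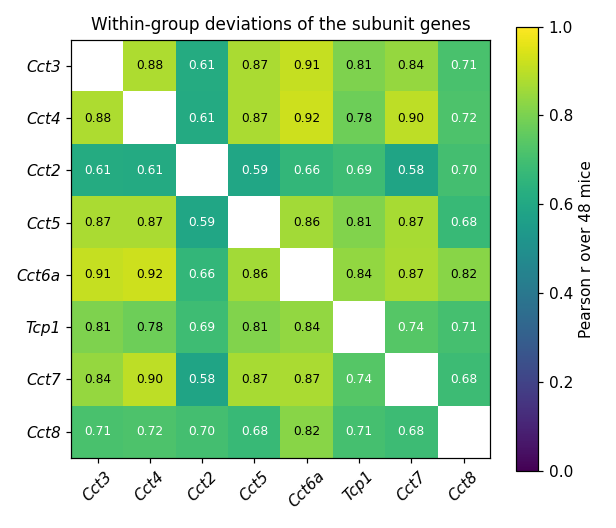
Pearson correlation between subunit genes (both axes) of their deviations from the mean of genotype and age, over 48 mice. The values run from 0.58 to 0.92, with the row of *Cct2* lowest.

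Outside the complex, the genes most like the mean of the 8 subunits in this measure were *Chtop* (*r* = 0.87), which encodes an mRNA export factor, *Ywhae* (0.85), *Pmpcb* (0.85), *Ube2d3* (0.85), *Mipep* (0.84), *Arf4* (0.84), *Atp5b* (0.84) and *Rbbp4* (0.84). Of 17303 genes compared, 22 (0.127%) reached 0.8, and the median over all was −0.02. None of these 8 was on a list gathered around the chaperonin. Without the 2 farthest mice *Hsp90ab1* stood first and *Chtop* second, both at 0.78, and *Ywhae* and *Arf4* fell to places 18 and 19. From E14.5 to 1 month in WT, 5 of these 8 genes fell, *Arf4* by 1.41, *Rbbp4* by 1.40, *Chtop* by 0.61, *Ywhae* by 0.58 and *Pmpcb* by 0.55. *Mipep* and *Atp5b* rose (0.44 and 0.33), and *Ube2d3* was not called (−0.05). Among listed genes the Hsp90 co-chaperone gene *Ahsa1* came closest (0.81), followed by *Hsp90ab1* (0.77) and *Tubb4b* (0.77), and the median over the 26 chaperones was 0.36, or 0.43 without the 2 farthest mice.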

How the data were processed

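RNA of one cortical hemisphere from each of 48 male mice was sequenced, 6 per genotype and age. According to the study's methods and processing notes, the authors used STAR 2.5.2b, Salmon 0.11.3 and DESeq2, with the mm9 build, and deposited VST values, which are on a log2 scale. The deposited log2 values hold no counts, but the study lists the read depth of each sample. Adding that depth as a covariate to the genotype comparisons did not change the count of subunit genes called. The most frequent value, 2.14, fills 15.7% of the table, with other values below it. Over all 48 samples the difference in mean between replicates 1 to 3 and replicates 4 to 6 was already removed. This takes a little spread out of the values. Within single groups a difference could remain. In WT at 12 months, *Cct3* stood at 11.54, 11.45 and 11.35 in replicates 1 to 3. Replicates 4 to 6 stood at 11.33, 11.58 and 11.88. Adding that split as a covariate changed the count of subunit genes called in one comparison, WT from 1 to 6 months, from 2 to 3.

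Genes whose mean lay 0.5 above that most frequent value were tested with limma 3.58.1 (R 4.3.3, trended variance) in separate fits for each comparison, and all 48 samples entered the comparisons of genotype effects between ages. Adjusted *p* values (Benjamini-Hochberg) cover all genes tested. Subunits were compared with each other by exact permutation. Tables were made with Python 3.11.15, pandas 2.3.3 and scipy 1.17.1, and the limma step was tested on simulated data. The members and lists were chosen with earlier results of these data known. Named genes were taken from the 8 members, *Chd8*, the neighbors of *Tcp1*, the 3 largest differences of each list, listed genes that were called, and the 8 genes most like the complex. *Usp16*, *Bbs10*, *Bbs12* and the genes correlated among the lists were named after their values were seen. Replicates are separate mice, and the *p* values measure the spread between them.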

Additional observations from a re-analysis of the deposited data

Results flagged for a closer look

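In 72 sets of 6 values, drawn from the same 8 groups of mice, 4 held a value far from the other 5 by Dixon's test. About 1 in 20 sets is expected to do so by chance. The sets share mice and the genes moved together, so the sets are not independent of each other. *Cct5* in WT replicate 6 at 12 months was the highest of its group at 12.2, with the nearest mouse at 11.9. *Cct5* in mutant replicate 6 at 12 months was the lowest of its group at 11.6, with the nearest at 11.8. *Cct8* in WT replicate 6 at E14.5 was the highest at 12.9 (12.86, nearest 12.80), and *Cct8* in mutant replicate 5 at 1 month was the highest at 12.1 (12.11, nearest 12.02).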

How the results depend on the processing

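No result changed direction past the threshold. At 12 months the number of subunit genes called between genotypes went from 0 to 4 when all 48 samples were fitted together and to 6 when that fit also had a replicate block, and it ran from 0 to 1 when each replicate was left out in turn, the 1 being *Cct7* without WT replicate 3 of 12 months. Over all genes the 12-month count was 8, against 520 and 1006 in the joint fits and 2 to 251 with a replicate left out. Quantile normalization moved the mean change of the 8 genes from E14.5 to 1 month from −1.13 to −1.38 in WT and from −1.14 to −1.41 in mutant mice, and that of mutant mice from 6 to 12 months from −0.074 to −0.034. From 1 to 6 months, the 2 calls in WT became 1 without the variance trend, 4 with median centring, 0 at an adjusted *p* below 0.05 and 1 in the joint fit, and the 2 in mutant mice became 1 at an adjusted *p* below 0.05, 1 with a replicate block and 0 in the joint fit. The genotype effect at 12 months minus that at E14.5 had 1 call, *Cct7*, with a replicate block, and none without. The cause of these changes was not tested. Replicate numbers were to be taken as pairs where the correlation of deviations exceeded 0.1 at every number, which was met at no age (mean correlations from the youngest to the oldest age 0.232, 0.0182, 0.0451 and −0.0342, with 7, 2, 2 and 1 of 12 mice closest to their own number). At E14.5, 4 of 6 numbers exceeded 0.1, a hint of pairing from the data and not from the design.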

Other observations

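The 2 mice farthest from their groups in the mean of the subunit genes also had the lowest *Chd8* of their groups. WT replicate 6 of 12 months stood at 11.36 for *Chd8*, where the other WT mice ran from 11.63 to 11.80, and mutant replicate 1 of E14.5 stood at 11.60, where the others ran from 11.90 to 12.03. Over the 48 mice the within-group correlation of *Chd8* with the mean of the 8 genes was −0.50, and without these 2 mice it was −0.15. The correlation is a description, chosen after its value was seen, and its basis was not tested.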
